A study of Anas platyrhynchos with 2 samples.

Results

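The miR-30 family of the duck duodenum was examined through the rows of a mature miRNA table whose names begin with gga-miR-30 followed by a letter from a to e, in either arm. The rule found 10 of 288 rows, which come from 6 hairpins, and used names only. The prefix gga stands for chicken, and 246 of the 288 rows carry chicken names. The ducks were female Jingjiang ducks, an egg-laying breed, and were 1 day old. Of 20 ducks divided between 2 groups, one group was driven for 8 h over ordinary and bumpy roads at speeds from 40 to 70 km per h, and its label names damage to the duodenal mucosa. The control group was kept in the same kind of carrying case without a journey, and its tissue is labelled as normal duodenum. Each group gave 1 small RNA library, and the number of ducks behind a library is not stated.

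The libraries go by the names CC and CT in the table. By their last letters, which no label spells out, CC was taken as control and CT as transported, so every comparison is given as CT against CC, and relative to transport it would turn if that reading is wrong. Without replicates, no difference was checked between samples of a group and no test between the groups was possible. Exact 95% intervals are given throughout; they hold only the error of counting and thus compare libraries, not conditions. The depth was 5772509 counts for CC and 5272666 for CT, and levels are in CPM (counts per 1e6 counts of the library). Of the marker miRNAs of intestinal epithelium, 5 of 6 matched a row, miR-192 did not, and together they took 452856 CPM in CC against 508604 CPM in CT.

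A miRNA hairpin is cut into a duplex whose strands, the 5p and the 3p arm, can each be loaded into an Argonaute protein, and the loaded arm finds its target messages mainly through its seed, bases 2 to 8. The vertebrate miR-30 family shares a 5p seed and therefore overlapping targets, among them messages for the mesenchymal transcription factor SNAI1 and the autophagy protein BECN1 in mammals. In human and mouse intestine the family has been linked to the proliferation and differentiation of epithelial cells. In mammals its hairpins lie in pairs, 30a with 30c-2, 30b with 30d, and 30c-1 with 30e, the last pair within the gene NFYC.

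The listed 5p forms are shown first because several of these rows can be told apart by few bases only. The table gives them as follows, 5′ to 3′, with the seed in capitals.
miR-30a-5p: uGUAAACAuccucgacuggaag
miR-30d: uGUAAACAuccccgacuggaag
miR-30e-5p: uGUAAACAuccuugacugg
miR-30c-5p: uGUAAACAuccuacacucucagcu
miR-30b-5p: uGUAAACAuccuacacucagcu

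All 5 share the seed and their first 11 bases, uGUAAACAucc, and 0 rows outside the family carry that seed. Counted from 1 at the 5′ end, miR-30d departs from miR-30a-5p only by U12C, and the listed miR-30e-5p departs from it only by C13U over the 19 bases listed for it. The listed miR-30e-5p is 19 nt long, against 22 nt for miR-30a-5p, miR-30d and miR-30b-5p and 24 nt for miR-30c-5p. It is shorter than the small RNA of 20 to 30 nt that was isolated per the labels, and the lengths of the reads counted for it are not given. miR-30b-5p and miR-30c-5p agree over the first 18 bases and, set side by side without a gap, differ at 4 of the next 4. With the bases uc put in after base 18, the miR-30b-5p form reads as that of miR-30c-5p, so their ends are alike but shifted. How the authors placed reads that fit several of these forms, or forms longer than those listed, is not stated in the labels or the table, so the division of counts between near-identical rows is uncertain, as is whether a read could count in more than 1 row.

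The listed 3p forms are less alike, apart from miR-30a-3p and miR-30e-3p. They are shown to set the arms of each hairpin side by side, again with bases 2 to 8 in capitals.
miR-30a-3p: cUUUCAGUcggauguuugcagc
miR-30e-3p: uUUCAGUCggauguuuacagc
miR-30c-1-3p: uGGGAGAGgauuguuuacgcc
miR-30c-2-3p: uGGGAGAAggcuguuuacucu
miR-30b-3p: cUGGGGGGuggauguuuacuuc

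The miR-30e-3p form begins 1 base later than that of miR-30a-3p, so their seeds are shifted against each other although the sequences differ only by A17G, with miR-30e-3p as the reference. The division of counts between these rows is uncertain for the same reason as that between the near-identical 5p rows. miR-30c-1-3p and miR-30c-2-3p differ at 5 of 21 bases, the first of them G8A within the seed. The seeds of the 3p forms are found in 0 rows outside the family.

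The hairpins of miR-30e, miR-30a and miR-30d are printed to show where the listed arms, in capitals, lie in them.
mir-30e: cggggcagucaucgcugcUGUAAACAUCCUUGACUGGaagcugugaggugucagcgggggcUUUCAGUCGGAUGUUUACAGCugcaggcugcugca
mir-30a: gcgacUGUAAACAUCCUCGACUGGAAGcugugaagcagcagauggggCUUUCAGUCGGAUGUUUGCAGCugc
mir-30d: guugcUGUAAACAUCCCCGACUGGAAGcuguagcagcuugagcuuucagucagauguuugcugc

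In the miR-30e hairpin the listed 5p form is followed by the bases aag, with which miR-30a-5p and miR-30d end. For the miR-30d hairpin 1 arm is listed. At the 3p end that hairpin holds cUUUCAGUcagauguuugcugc, with bases 2 to 8 in capitals, which differs from miR-30a-3p at 2 of 22 bases, by G10A and A20U with miR-30a-3p as the reference. Folded with ViennaRNA, the 3 hairpins gave predicted energies of -54.2 kcal/mol for mir-30e, -35.8 kcal/mol for mir-30a and -28.9 kcal/mol for mir-30d. The mir-30e hairpin is also the longest, at 96 bases against 72 and 64. All 7 seed bases of the 5p arm were paired in each of the 6 hairpins. The sequence of miR-30c-5p, listed under mir-30c-2, also lies whole in the mir-30c-1 hairpin, so its counts cannot be divided between the hairpins. The table gives no genome position for rows with chicken names.

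The family as a whole was 1.16-fold higher in CT (interval 1.15 to 1.17), and its 5p arms made up nearly all of it. The 10 rows together had 112999 counts in CC and 119331 in CT. They took 1.96% of the CC library (1.95 to 1.97%) and 2.26% of the CT library (2.25 to 2.28%). The 5 rows with the shared 5p seed summed to 18798 CPM in CC against 21764 CPM in CT, and the 5 rows of 3p arms had 777 CPM and 868 CPM, so the 5p arms held 96.0% of the family in CC and 96.2% in CT. In bulk tissue, a higher level from more cells of a type cannot be told apart from more of the miRNA in each cell.

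Markers of several cell types also differed between the libraries. All 5 matched markers of intestinal epithelium were higher in CT, with a summed level 1.12-fold that of CC. That sum is mostly miR-215-5p, with 2341399 of 2614117 counts in CC and a log2 ratio of 0.10. The log2 ratios of miR-194, miR-200a-3p, miR-200b-3p and miR-429-3p were larger, at 0.59, 0.65, 0.83 and 0.49. The markers of pancreatic acinar cells, 4 of 4 higher, summed to 54.7 CPM in CC against 2555 CPM in CT, with miR-216c at 0 counts in CC. The endocrine miRNA miR-375 stood at 1206 CPM and 3365 CPM. In the other direction, miR-126-3p of endothelium stood at 9134 CPM in CC against 5298 CPM in CT, and the muscle miRNAs, 4 of 5 lower, summed to 6049 CPM and 4669 CPM. Among the lower muscle miRNAs, miR-206, at 0 in CT, had too few counts to give a direction. The muscle miRNA miR-133b was higher in CT, with a log2 ratio of 0.41 on 199 counts over both libraries. The markers of red blood cells summed to 3.29 CPM and 1.90 CPM, which rest on only 19 counts in CC and 10 in CT. The markers of white blood cells summed to 85.8 CPM and 92.0 CPM, with miR-142-3p higher (log2 ratio 0.33) and miR-223 lower (-0.98) in CT. For hepatocytes, miR-122-5p stood at 209 CPM and 207 CPM. The part of these cell types in the miR-30 levels was not tested. Leaving the 5 rows of miR-216 and miR-217 out of the totals shifted every log2 ratio by 0.0036. Only the totals change in this step, so the part of pancreatic cells in the miR-30 counts was not tested by it.

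miR-30d and miR-30a-5p, the most abundant members, exchanged places between the libraries. The row gga-miR-30d had 45937 counts in CC and 42880 in CT, or 7958 CPM and 8133 CPM, and was the 14th most abundant row in each library. miR-30a-5p had 39582 and 45789 counts, or 6857 CPM and 8684 CPM, and moved from rank 16 to rank 13. Within CC there were 0.862 counts of miR-30a-5p for each count of miR-30d (0.850 to 0.873), and within CT there were 1.07 (1.05 to 1.08). This ratio is taken inside a library, so no scaling of the libraries changes it, although the rows compared differ by 1 base.

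The level of miR-30d was close in the libraries, with a log2 ratio of CT to CC of 0.031 (0.012 to 0.050) that turned to -0.014 with TMM scaling and -0.033 with median-of-ratios size factors. The level of miR-30a-5p was 1.27-fold higher in CT (1.25 to 1.28). The share of miR-30d in the family was 40.7% in CC (40.4 to 40.9%) against 35.9% in CT (35.7 to 36.2%). The share of miR-30a-5p was 35.0% in CC (34.8 to 35.3%) against 38.4% in CT (38.1 to 38.6%). Both rows added up to 75.7% of the family in CC and 74.3% in CT.

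**Figure D1:**
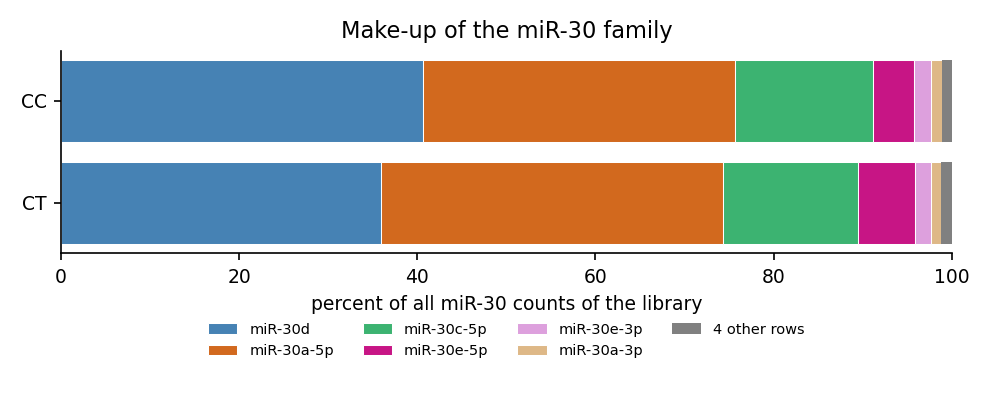
Share of each miR-30 row in all miR-30 counts of a library, in percent on the horizontal axis, with a bar for CC and a bar for CT; 4 rows of low count are joined. miR-30d narrows from 40.7% to 35.9%, while miR-30a-5p widens from 35.0% to 38.4% and miR-30e-5p from 4.57% to 6.37%.

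miR-30c-5p, the third member by level, stayed close to the family average. It had 17479 counts in CC and 18081 in CT, at 3028 CPM and 3429 CPM, and was 1.13-fold higher in CT (1.11 to 1.16). Its share of the family was 15.5% (15.3 to 15.7%) and 15.2% (14.9 to 15.4%), with intervals that overlap, which does not show equal shares. miR-30b-5p, which shares its first 18 bases, was far rarer. Its counts were 351 and 402, at 60.8 CPM and 76.2 CPM, with a ratio of 1.25 (1.08 to 1.45). In mammals miR-30b and miR-30d come from neighbouring hairpins, and here there were 131 counts of miR-30d for each of miR-30b-5p in CC (118 to 146) against 107 in CT (96.7 to 118).

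Of the members with at least 50 counts, miR-30e-5p differed most. The row gga-miR-30e-5p had 5163 counts in CC and 7601 in CT, or 894 CPM and 1442 CPM, and was 1.61-fold higher in CT (1.56 to 1.67). It moved from rank 41 to rank 37 of the table, and from 4.57% of the family (4.45 to 4.69%) to 6.37% (6.23 to 6.51%). Set against its near-identical relatives inside a library, there were 8.90 counts of miR-30d for each of miR-30e-5p in CC (8.64 to 9.16) against 5.64 in CT (5.51 to 5.78). For miR-30a-5p there were 7.67 in CC (7.45 to 7.89) against 6.02 in CT (5.88 to 6.17). The sum of miR-30a-5p, miR-30d and miR-30e-5p was 15709 CPM in CC against 18258 CPM in CT, 1.16-fold higher (1.15 to 1.17).

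**Figure D2:**
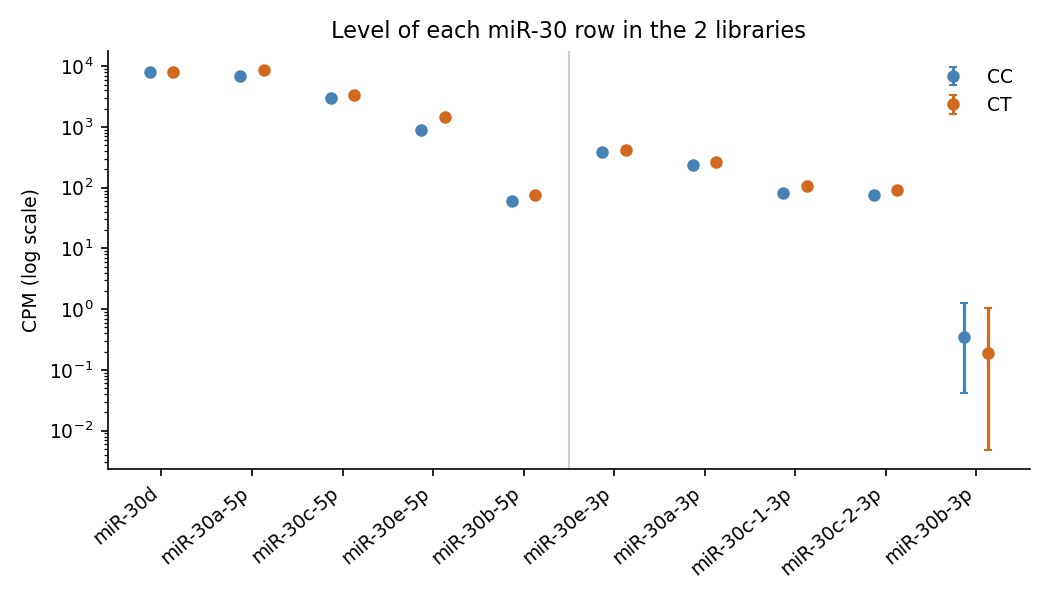
Level of each miR-30 row in CPM on a log axis, with CC in blue and CT in orange, 5p rows left of the vertical line and 3p rows right of it; bars are exact 95% counting intervals and are mostly smaller than the points. Levels run from 8684 CPM for miR-30a-5p in CT down to below 1 CPM for miR-30b-3p, and the order of miR-30d and miR-30a-5p differs between the libraries.

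The 3p arms followed another order than the 5p arms. miR-30e-3p was the most abundant of them, with 2208 counts in CC and 2167 in CT, or 383 CPM and 411 CPM. miR-30a-3p had 1369 and 1373 counts, or 237 CPM and 260 CPM. Inside a library there were thus 1.61 counts of miR-30e-3p for each of miR-30a-3p in CC (1.51 to 1.73) against 1.58 in CT (1.47 to 1.69), whereas their 5p partners stood the other way round. The miR-30c arms were alike in level, with 471 and 561 counts for miR-30c-1-3p and 437 and 476 counts for miR-30c-2-3p. Their ratio was 1.08 in CC (0.944 to 1.23), which includes equal counts, and 1.18 in CT (1.04 to 1.33). miR-30b-3p had 2 counts and 1 count, a ratio of 0.547 with an interval from 0.0093 to 10.5.

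The 3p arms differed between the libraries by less than 1.5-fold, apart from miR-30b-3p, which has too few counts. The ratio of CT to CC came to 1.10 for miR-30a-3p (1.02 to 1.18), 1.07 for miR-30e-3p (1.01 to 1.14), 1.30 for miR-30c-1-3p (1.15 to 1.48) and 1.19 for miR-30c-2-3p (1.05 to 1.36). In the order of levels within CC, each member's neighbours differed beyond counting error except miR-30c-1-3p and miR-30c-2-3p. Next below them came miR-30b-5p, with 1.25 counts of miR-30c-2-3p for each of its own (1.08 to 1.44). In CT the intervals of all neighbours were apart from equal counts.

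Read against the whole table, the family leaned toward CT by small ratios. Of its 10 rows, 9 had at least 50 counts over both libraries, and 0 of these were at least 2-fold apart, where 7.38% of the 149 rows with that many counts were. With a 1.5-fold rule 1 member passed, miR-30e-5p, against 22.1% of all rows. All 9 were higher in CT, against 53.0% of all rows. When scaled by TMM or by median-of-ratios size factors, 8 members were higher and miR-30d lower, against 46.3% and 45.0% of all rows that were higher. Scaled by column totals, the intervals of 9 members lay above a ratio of 1, as did those of 34.9% of all rows. TMM factors shift every log2 ratio by -0.0450 and size factors by -0.0646. Either shift exceeds the lower limits of miR-30d (0.012), miR-30e-3p (0.017) and miR-30a-3p (0.026). The shift of size factors also exceeds that of miR-30c-2-3p (0.0636). So shifted, the intervals of these rows no longer lie above a ratio of 1. The median log2 ratio of the 9 was 0.25, and that of the 149 was 0.02 (interquartile range -0.25 to 0.36). The rows share a seed or a hairpin and are not independent of each other.

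**Figure D3:**
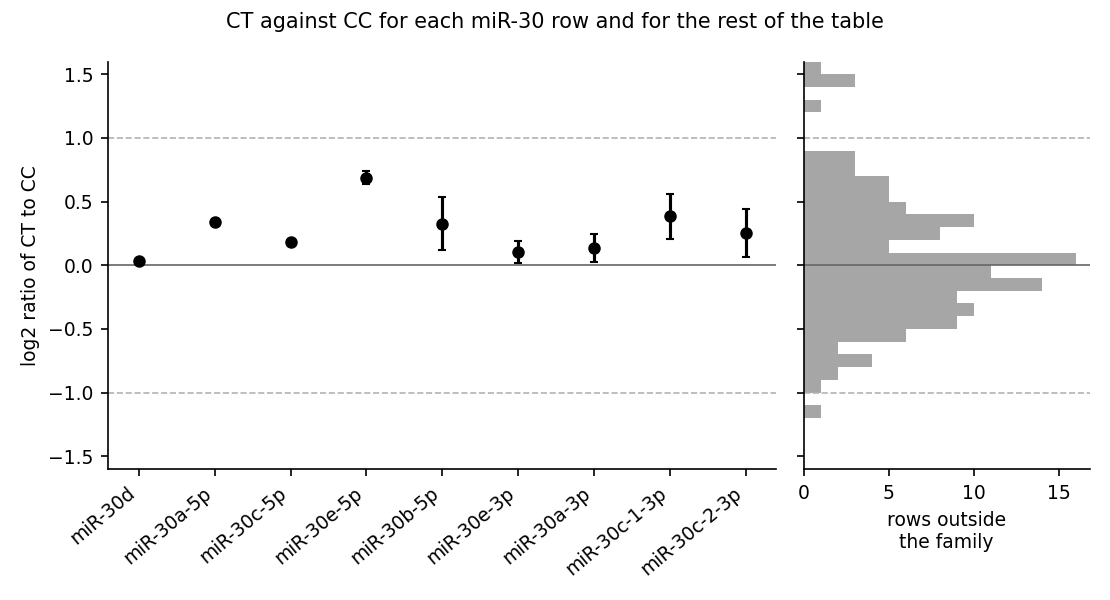
Left, log2 ratio of CT to CC for the 9 miR-30 rows with at least 50 counts, with exact 95% counting intervals; right, number of other rows at each log2 ratio, leaving out 5 rows beyond 1.6 either way. Dashed lines mark a 2-fold difference, which 0 of the miR-30 rows reach; miR-30e-5p lies highest at 0.69, and the other 8 lie between 0.03 and 0.38.

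Among the hairpins of the family, mir-30e was the one whose arms differed in balance by at least 5 percentage points. Its 5p arm took 70.0% of the arm counts in CC (69.0 to 71.1%) against 77.8% in CT (77.0 to 78.6%), a difference of 7.77 percentage points. Per count of the 3p arm there were 2.34 counts of the 5p arm in CC (2.22 to 2.46) against 3.51 in CT (3.34 to 3.68), so the ratio was 1.5 times as high in CT. The 3p counts, 2208 and 2167, were close in number, and the 5p counts carried the difference. An arm share is taken inside a library and does not depend on how libraries are scaled. It does depend on how reads were divided between near-identical rows, which is uncertain here, as stated above.

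The other miR-30 hairpins were almost wholly of the 5p arm in both libraries. For mir-30a the 5p share was 96.7% in CC (96.5 to 96.8%) against 97.1% in CT (96.9 to 97.2%), a difference of 0.43 points with intervals that do not overlap. For mir-30c-2 it was 97.6% (97.3 to 97.8%) and 97.4% (97.2 to 97.7%), and for mir-30c-1 with the same 5p row it was 97.4% (97.1 to 97.6%) and 97.0% (96.7 to 97.2%). With both 3p arms set against that row the share was 95.1% (94.7 to 95.4%) and 94.6% (94.2 to 94.9%), again with overlap. Overlap of the intervals does not show that the shares are equal. For mir-30b it was 99.4% (98.0 to 99.9%) and 99.8% (98.6 to 99.99%), resting on 3 counts of the 3p arm in all. The share of mir-30d cannot be given with 1 arm listed.

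Since the arms of mir-30a and mir-30e each differ by 1 base over the bases they share, both hairpins were also pooled, a choice made after seeing the data. Pooling adds many counts of the 5p arm and few of the 3p arm, which by itself brings the share near 100% and narrows any difference in points, so the pooled shares say nothing of how reads were placed. The pooled 5p share was 92.6% in CC (92.4 to 92.8%) against 93.8% in CT (93.6 to 94.0%), a difference of 1.18 points. With miR-30d added to the 5p side it was 96.2% (96.1 to 96.3%) and 96.5% (96.3 to 96.6%), a difference of 0.25 points.

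**Figure D4:**
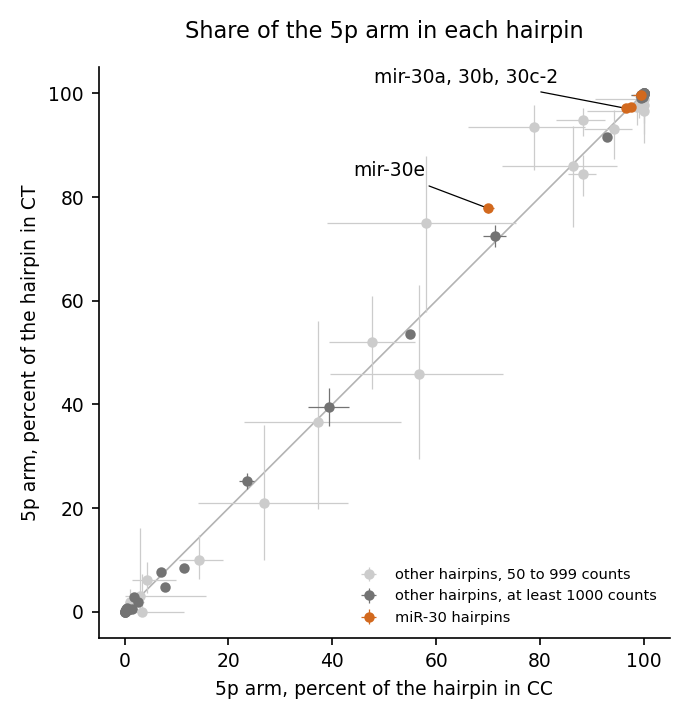
Share of the 5p arm among the arm counts of each of 70 hairpins, CC on the horizontal and CT on the vertical axis, in percent, with exact 95% intervals; miR-30 hairpins in orange. On the diagonal the shares are equal; mir-30e lies above it at 70.0% and 77.8%, and the other miR-30 hairpins lie within 0.5 points of it, above 96%.

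Over the 70 hairpins that have both arms in the table and 50 or more counts, 8.57% were at least 5 points apart and 12.9% had intervals that did not overlap. Of the 4 miR-30 hairpins among them, 1 was 5 points apart and 2 had intervals without overlap, mir-30a and mir-30e. The median absolute difference over the 70 was 0.32 points. Among the 46 hairpins with at least 1000 counts, 2.17% were at least 5 points apart, which is mir-30e alone. Outside the family the largest differences there were those of mir-200a (-3.11 points, CT minus CC), mir-140 (-2.92 points), mir-221 (1.78 points), mir-199-2 (-1.36 points) and mir-106 (1.18 points). A share near 0 or 100% can move by few points only, and mir-30e did not stand alone on the scale of counts of 5p per count of 3p. Of 7 hairpins outside the family with at least 1000 counts and intervals that did not overlap, 4 were further apart on that scale than mir-30e, and these are named after their values were seen. The ratio in CT was 0.585 times that in CC for mir-200a, 0.614 times for mir-200b, 0.638 times for mir-146b and 1.58 times for mir-126. Of the 46, 6 had a 5p share between 10 and 90% in CC, a range chosen after seeing the data, and mir-30e was the 1 of these 6 (16.7%) at least 5 points apart. mir-106, which has nearly the same balance as mir-30e in CC, at 71.3% (69.1 to 73.4%), was at 72.5% in CT (70.3 to 74.6%).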

How the data were processed

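Small RNA of 20 to 30 nt was isolated from 10 µg of total RNA of the duodenum on a 15% gel, per the labels' protocols. The authors deposited read counts and TPM per mature miRNA, per the file headers. The deposited TPM equal counts per 1e6 counts of the library within 4.3e-05, without a length term, and are named CPM here. No label or header names the aligner, database release or build. Columns CC and CT were matched to samples by their last letter. The depth was 5772509 and 5272666 counts. Ratios carry exact conditional and shares exact binomial 95% intervals (Clopper-Pearson), which cover counting error only. Their computation was checked on simulated counts that held counting error alone, which says nothing of other error. Members were all rows of the name rule; members and marker lists were chosen with earlier results of these data known. A call needed at least 50 counts over both libraries and a 2-fold ratio, or 5 points of arm share. The 5 hairpins outside the family named for their difference in points are those with the largest differences among hairpins with at least 1000 counts. Beyond these, mir-200b, mir-146b and mir-126 were named for their ratio of 5p to 3p counts, after their values were seen. Alternatives used TMM factors (edgeR 4.0.16), size factors (DESeq2 1.42.0), a pseudocount of 5 CPM, and other totals and minimums. Hairpins were folded with ViennaRNA 2.7.2. Python 3.11.15, scipy 1.17.1 and R 4.3.3 were used.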

Additional observations from a re-analysis of the deposited data

How the results depend on the processing

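The family's log2 ratio of 0.21 was 0.16 with TMM factors, 0.14 with size factors, 0.27 with totals without the 10 most abundant rows and 0.32 without miR-30d, and moved within counting error with 5p arms only or totals without miR-216 and miR-217. Of 45 recomputed ratios of the 9 members with at least 50 counts, 34 stayed within the counting interval, 9 left it in the same direction and 2 changed sign, both of miR-30d (-0.014 with TMM, -0.033 with size factors). The 0 members at least 2-fold apart became 1 under the 1.5-fold rule. The 11 rows of the whole table became 24 with a minimum of 10 counts, 3 with 500 and 33 under the 1.5-fold rule. The 6 hairpins at least 5 points apart became 2 with a minimum of 200 counts, 1 with 1000, 12 at 3 points and 3 at 10 points. Each of these follows from the altered rule, total or set of rows. The mir-30e difference of 7.77 points was 1.18 with mir-30a pooled and 0.25 with mir-30a and mir-30d pooled, settings chosen after seeing the data that bring any share near 100%. No replicate could be left out and no paired analysis was possible because each group has 1 library. At this depth 3 counts equal 0.520 CPM in CC and 0.569 CPM in CT, so miR-30b-3p allows no direction.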

Other observations

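Set beside the other seed families of the table, the miR-30 family was among the more abundant. There were 10 families of at least 3 rows with equal bases 2 to 8 and at least 50 counts each. By summed level in CC the miR-30 seed, at 18798 CPM, stood after the let-7 seed (38947 CPM) and the miR-146 seed (23922 CPM), and in CT, at 21764 CPM, it stood above the miR-146 seed (17066 CPM). The log2 ratios of the 5 miR-30 rows spanned 0.03 to 0.69. Those of the 4 rows of the miR-17 seed, the other family with all rows higher in CT, spanned 0.01 to 0.14. Scaled by TMM or by size factors, miR-30d of the former and miR-20a-5p of the latter were lower in CT. Size factors also left miR-17-5p level between the libraries, as its log2 ratio of 0.0646 met their shift of -0.0646. The 8 rows of the let-7 seed spanned -0.36 to 0.88. The most abundant row held 42.3% of its seed family's counts in CC and 39.9% in CT for miR-30. Over the 10 families this share was lowest for let-7, at 33.2% and 35.3%, and highest for miR-10, at 98.0% and 98.2%.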
